A study of Mus musculus with 12 samples.

Results

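The BCL-2 family genes of mouse MLL-AF9 leukemia cells were examined in 3 hosts. A list of 10 genes, taken by name and not by a limit on their values, was looked up by symbol among the 55401 genes measured, and all 10 were found. The list holds 5 anti-apoptotic genes (Bcl2, Mcl1, Bcl2l1, Bcl2a1b and Bcl2a1d), the pore-forming effectors Bax and Bak1, and the BH3-only genes Bcl2l11, Bid and Bbc3. The cells carried the fusion oncogene MLL-AF9 together with GFP, delivered by a retrovirus into mouse bone marrow progenitors, and had passed through more than 10 transplantations, so all libraries descend from the same serially passaged leukemia cells. They were injected into non-irradiated female mice of 8 to 12 weeks, and GFP+ cells were taken from the bone marrow once the mice were moribund. The hosts were WT C57BL/6 mice, Rag2-/- mice (strain C57BL/6J-Rag2em3Lutzy/J), in which mature lymphocytes of the T and B lineages do not form, and NSG mice, which have no T, B or NK cells and a non-obese diabetic background. The deficiencies belong to the host, not to the leukemia cells. Each host gave 4 RNA-seq libraries, labelled as biological replicates, and no host was treated with a drug.

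BCL-2 family proteins decide at the mitochondrion whether a cell lives. The anti-apoptotic members hold the effectors BAX and BAK in check, BH3-only proteins bind and neutralize the anti-apoptotic members or activate the effectors directly, and free effectors open the outer membrane, release cytochrome c and start the caspase cascade. Acute myeloid leukemia cells, those with MLL fusions included, are known to lean on MCL1 and BCL2, and small molecules that occupy the BH3-binding groove of BCL2, BCL-XL or MCL1 are used or studied against them.

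The BH3 motif is the short helix through which these proteins bind one another, and its core is what most of the 10 genes share in sequence. To show this shared part, the 30 coding bases that begin at its conserved leucine are given 5′ to 3′ for the 8 genes in which a search of the coding sequence found the pattern. Capitals mark the leucine codon and the pair of codons for a small residue and aspartate that follow it. The sequences are from the mouse genome GRCm38 with the GENCODE M21 transcripts.
Mcl1 (chr3:95659436-95659465, + strand): CTGcggcgcgtgGGCGACggcgtgcagcgc
Bcl2l1 (chr2:152829694-152829723, - strand): CTGagagaggcaGGCGATgagtttgaactg
Bcl2 (chr1:106712572-106712601, - strand): CTCcgccgggctGGGGATgacttctctcgt
Bak1 (chr17:27022528-27022557, - strand): CTTgctctcatcGGAGATgatattaaccgg
Bax (chr7:45465994-45466023, - strand): CTCcggcgaattGGAGATgaactggacagc
Bid (chr6:120897286-120897315, - strand): CTCgcccaaataGGCGATgagatggaccac
Bcl2l11 (chr2:128147150-128147179, + strand): CTGcggcggatcGGAGACgagttcaacgaa
Bbc3 (chr7:16313773-16313802, + strand): CTGcggcggatgGCGGACgacctcaacgcg
Each stretch lies within 1 coding exon. In 7 of the 8 genes the small residue is glycine, and in Bbc3 it is alanine. The search found no such pattern in Bcl2a1b or Bcl2a1d.

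Expression is given as TPM, each transcript's share of all transcripts in a library on a fixed scale, a level corrected for gene length and library size so that genes can be compared with each other. The deposited files hold no read counts, but with the exon lengths of GENCODE M21 between 98.8% and 99.1% of low values came out as whole reads (within 0.05 reads), which puts the depth at 16039876 to 42845569 reads per library. Median depth was 16966222 reads in WT, 28460760 in Rag2-/- and 20119567 in NSG. Sequencing was paired-end, and 65.8% to 68.9% of the low whole values were even, so both mates of a pair appear to have been counted. Independent fragments would then number about 8019938 to 21422785 per library, and the read numbers of single genes would overstate their fragments in the same way. The hosts were compared with limma on log2(TPM + 1) over the 15026 genes that averaged 1 TPM or more, and a gene was called at an adjusted p below 0.05 and a log2 difference beyond 0.5. All 14 markers of leukemia and myeloid progenitor cells (Hoxa9, Meis1, Kit and Mpo among them) were detected in every host, but 2 of them were called in Rag2-/- against WT. Mpo, the myeloperoxidase of granulocyte precursors, fell from 508 to 593 TPM in WT to 70.1 to 287 TPM in Rag2-/-, and Cd33 rose by 0.59 on the log2 scale. Mature neutrophil markers moved with the host. Of 12, 11 were called higher in Rag2-/- than in WT, and their summed level was 1673 to 3473 TPM in Rag2-/-, 754 to 987 TPM in WT and 1103 to 1191 TPM in NSG, with none at 0. Rag2-/- replicate 4 held the lowest of the Rag2-/- sums. In bulk RNA, a different number of cells of a type and a different amount of RNA per cell cannot be told apart. Other marker sums were also free of overlap between Rag2-/- and WT. For 8 macrophage markers the sum was 91.3 to 99.1 TPM in WT and 103 to 117 TPM in Rag2-/- (C1qc called higher), for 10 T and NK cell markers 0.366 to 1.49 and 1.72 to 4.87 TPM (Cd3e and Trac listed at 0 throughout), and for 6 erythroid markers 3.20 to 4.25 and 4.75 to 9.15 TPM. The sums of 7 B and plasma cell markers overlapped, with Ms4a1 listed at 0 throughout and Igkc called lower in Rag2-/-. The part of all these marker genes in the host differences of single members was not tested.

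None of the BCL-2 family genes was called between hosts. Of the 9 members tested, 0 were called in Rag2-/- against WT, where 1.47% of all genes tested were called. The count was also 0 of 9 in Rag2-/- against NSG, where 0.213% of all genes were called, and 0 of 9 in NSG against WT, where 0.0% were. The linear model of limma on recovered reads (voom) also called 0 members in each comparison. Of its 15001 genes tested, it called 284 in Rag2-/- against WT, 60 in Rag2-/- against NSG and 1 in NSG against WT. At an unadjusted p below 0.05, Rag2-/- against WT gave 2 of 9 members, Bcl2l1 and Bcl2l11, beside 20.9% of all genes. Rag2-/- against NSG gave 1 (Bcl2l11) beside 12.6%, and NSG against WT gave 1 (Bcl2l1) beside 9.16%. The same pair, Bcl2l1 and Bcl2l11, had libraries that did not overlap between Rag2-/- and WT, beside 16.9% of all genes, and no member was free of overlap in the other comparisons, beside 6.59% and 4.59% of all genes. The shares among members were thus near those of all genes. The median log2 difference of the 9 members was -0.02 for Rag2-/- against WT, -0.01 for Rag2-/- against NSG and 0.01 for NSG against WT, where the medians of all genes tested were 0.02, 0.01 and 0.00.

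**Figure D1:**
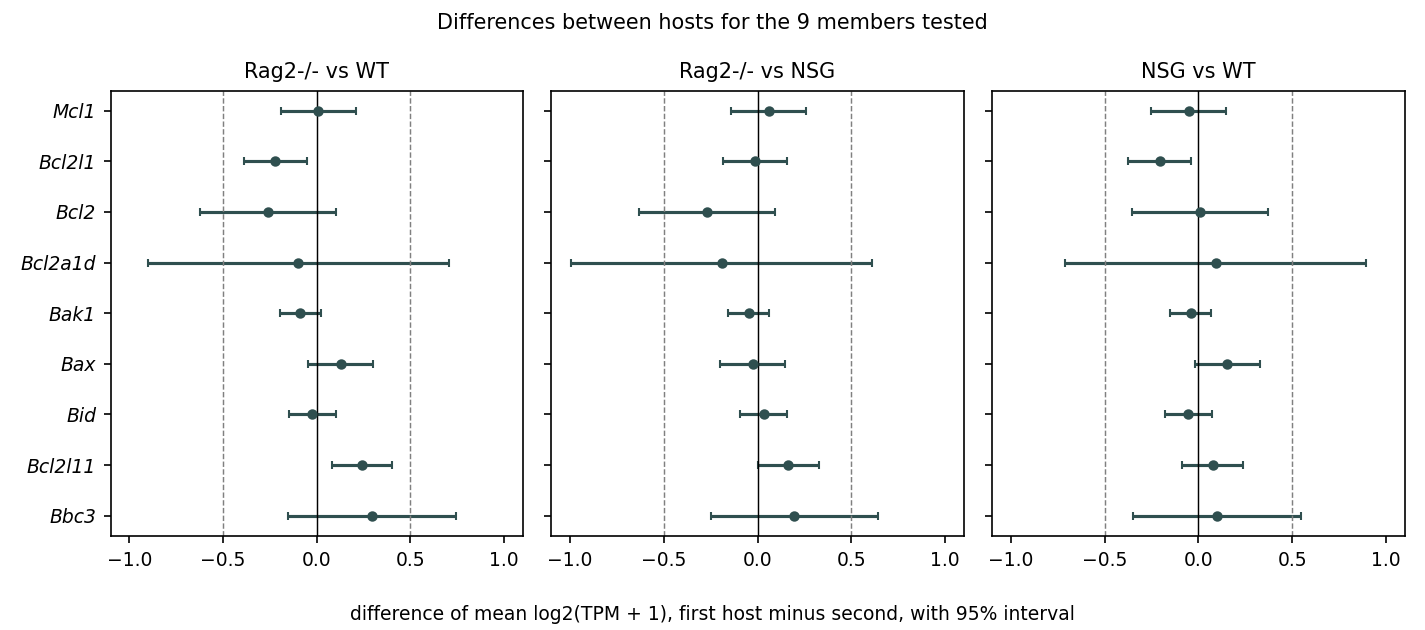
Difference of mean log2(TPM + 1) between hosts for the 9 members tested, first host minus second, with 95% intervals from limma over 4 libraries per host. Dashed lines mark the limit of 0.5. For Rag2-/- against WT the intervals of Bcl2l1 (-0.39 to -0.05) and Bcl2l11 (0.08 to 0.40) exclude 0, and no point passes 0.5 in any comparison.

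Mcl1 was the dominant anti-apoptotic gene in all 12 libraries. MCL1 is a short-lived guardian of the mitochondrion on which myeloid progenitors depend. Its level was 463, 385, 374 and 363 TPM in WT, 389, 433, 409 and 359.7 TPM in Rag2-/- and 349.9, 383, 440.0 and 356 TPM in NSG. The 3 hosts overlapped throughout, and its mean over all libraries, 392 TPM, exceeded that of 97.7% of the genes tested. Behind these values stood 5887 to 14796 reads per library. The difference of means on the log2(TPM + 1) scale was 0.01 ± 0.09 (SE, n = 4 per host) for Rag2-/- against WT, with a 95% interval from -0.19 to 0.21, the upper end of which is 1.16-fold. The sign of so small a value is not stable: it was -0.016 with scaling by the median ratio, -0.0016 with quantile normalization and -0.016 with voom. Against NSG the Rag2-/- difference was 0.06 (interval -0.14 to 0.26).

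**Figure D2:**
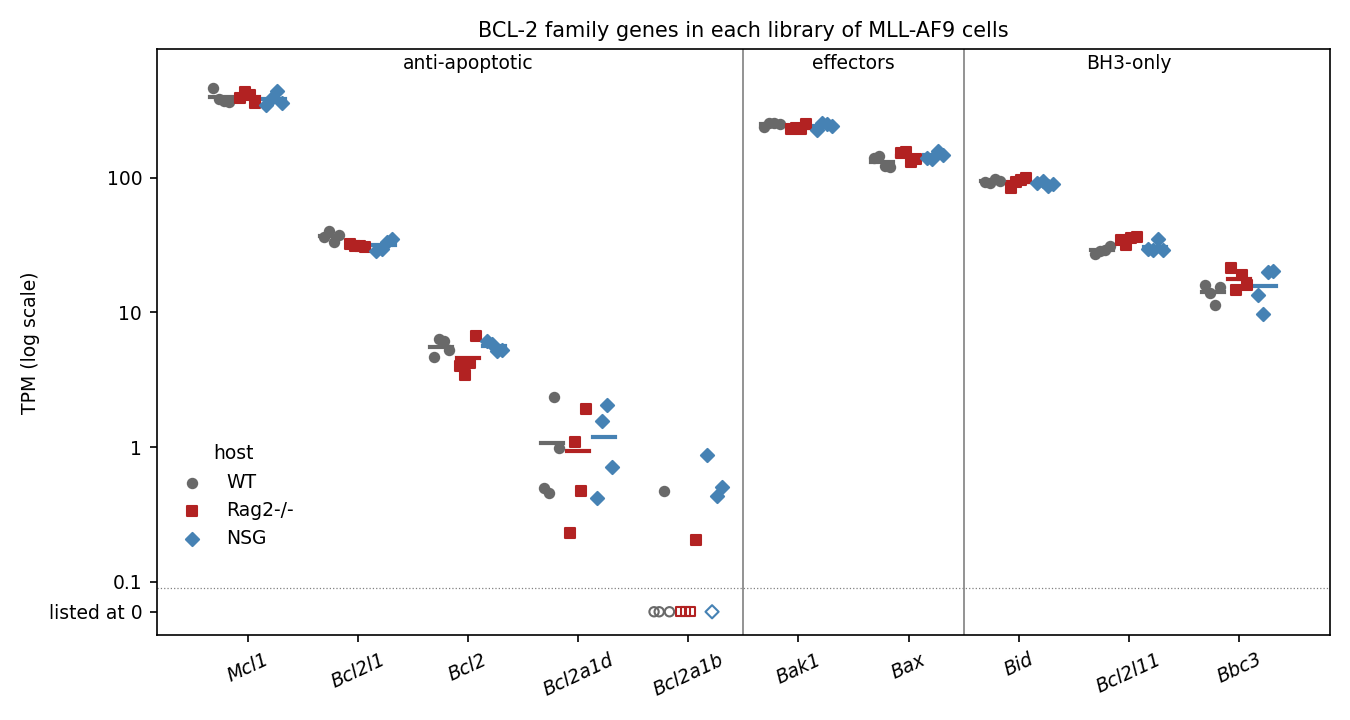
TPM on a log axis for the 10 genes, 1 point per library and 4 libraries per host, with a bar at each host's mean. Open symbols are libraries listed at 0, and no mean is drawn for Bcl2a1b. Mcl1 sits at 349.9 to 463 TPM in every library, above all other members, while Bcl2a1b and Bcl2a1d reach at most 2.37 TPM.

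Of the summed TPM of the 5 anti-apoptotic genes, Mcl1 made up between 89.1% and 92.4% in every library. By host its share was 90.0% ± 1.22 (SD, n = 4) in WT, 91.4% ± 0.97 in Rag2-/- and 90.7% ± 0.86 in NSG, and the ranges overlapped. Bcl2l1 supplied 6.64% to 9.30% and Bcl2 0.74% to 1.67%. Mcl1 exceeded Bcl2l1 by 9.58-fold to 13.9-fold and Bcl2 by 54.0-fold to 125-fold across libraries. The sum leaves out Bcl2l2, a further anti-apoptotic gene at 18.7 to 26.2 TPM, with which the Mcl1 share would be lower. These shares are of messenger RNA and depend on the gene lengths behind the TPM. Protein was not measured.

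**Figure D3:**
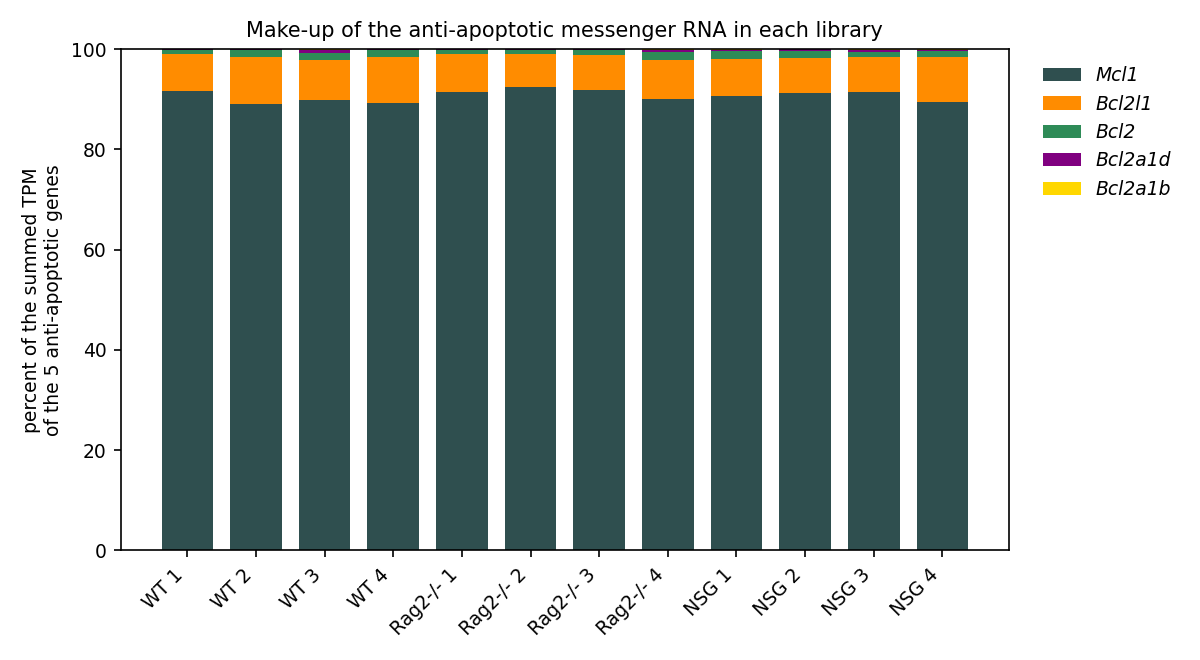
Percent of the summed TPM of the 5 anti-apoptotic genes that each gene supplied, 1 bar per library, bars starting at 0. Mcl1 fills 89.1% to 92.4% of every bar and Bcl2l1 most of the rest in all 3 hosts.

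Bcl2l1, which encodes BCL-XL, was second among the anti-apoptotic genes. It stood at 36.4, 40.2, 33.2 and 37.4 TPM in WT, at 32.4, 31.1, 31.4 and 30.6 TPM in Rag2-/- and at 28.7, 29.5, 33.6 and 35.3 TPM in NSG. Every Rag2-/- library lay below every WT library, while NSG overlapped both. The Rag2-/- libraries were close together (SD 0.73 TPM, against 2.86 TPM in WT). The log2 difference from WT was -0.22 ± 0.08 (SE) with a 95% interval from -0.39 to -0.05, which did not pass the test (limma adjusted p = 0.134, unadjusted p = 0.0147). NSG differed from WT by -0.21 (adjusted p = 0.479, limma) and Rag2-/- from NSG by -0.01, so the values of Rag2-/- and NSG lay close together. Both comparisons with WT share the same WT libraries.

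Bcl2, the founding member of the family and the target of venetoclax, was low. It measured 4.64, 6.32, 6.13 and 5.26 TPM in WT, 4.01, 3.46, 4.24 and 6.67 TPM in Rag2-/- and 6.17, 5.82, 5.21 and 5.24 TPM in NSG. In Rag2-/-, replicates 1 to 3 lay below all 8 libraries of the other hosts, and replicate 4 was the highest of all 12. The difference of Rag2-/- from WT was -0.26 ± 0.17 (adjusted p = 0.403, limma). Without Rag2-/- replicate 4 it was -0.42 (adjusted p = 0.132), and the difference from NSG went from -0.27 to -0.43. Replicate 4 was also the Rag2-/- library with the lowest summed neutrophil markers, 1673 TPM against 2952 to 3473 TPM in the other 3. It was the deepest of all 12 libraries as well (42845569 reads). A relation of Bcl2 to either trait was not tested.

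Bcl2a1b and Bcl2a1d encode mouse copies of A1, an NF-kappaB-induced survival protein abundant in mature neutrophils. The copies can hardly be told apart by short reads. Over their 516 coding bases Bcl2a1b and Bcl2a1d differ at 6 positions (G4T, T48C, A94C, G312A, C381G and T490A, Bcl2a1b first, counted from the A of the start codon), an identity of 98.8%. The first 120 coding bases are shown because they hold 3 of these differences, in capitals.
Bcl2a1b (chr9:89199360-89199479, + strand): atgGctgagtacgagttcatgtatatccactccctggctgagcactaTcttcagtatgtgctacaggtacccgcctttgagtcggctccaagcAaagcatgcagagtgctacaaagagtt
Bcl2a1d (chr9:88731600-88731719, - strand): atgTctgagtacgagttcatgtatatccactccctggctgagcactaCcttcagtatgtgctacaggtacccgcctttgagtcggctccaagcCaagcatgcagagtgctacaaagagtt
Of all 100-base windows in their transcripts, 56.8% for Bcl2a1b and 54.7% for Bcl2a1d also occur in another gene (Bcl2a1a, the other copy or Gm29094). How reads matching several copies were counted is not given in the sources used here, so the values of single copies are uncertain.

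With that limit, both copies were near the bottom of what was detected. Bcl2a1d stood at 0.50, 0.459, 2.37 and 0.980 TPM in WT, at 0.232, 1.09, 0.474 and 1.93 TPM in Rag2-/- and at 0.417, 1.55, 2.05 and 0.716 TPM in NSG, which is 2 to 20 reads per library, an even number in every library. Bcl2a1b was listed at 0 in 7 of the 12 libraries, 3 of WT, 3 of Rag2-/- and 1 of NSG. With both mates counted, a count of 0 allows up to 3 pairs (6 reads), or 0.735 to 1.58 TPM in those libraries, counting error alone considered. Its other values were 0.470 TPM in WT replicate 3, 0.204 TPM in Rag2-/- replicate 4, and 0.881, 0.432 and 0.504 TPM in NSG replicates 1, 3 and 4. Summing Bcl2a1a, Bcl2a1b, Bcl2a1c and Bcl2a1d, which removes the question of how reads were split among them, gave 1.50 to 4.33 TPM in WT, 0.967 to 3.72 TPM in Rag2-/- and 1.70 to 3.60 TPM in NSG. In Rag2-/-, the sums were 0.967, 1.47 and 1.47 TPM in replicates 1 to 3 and 3.72 TPM in replicate 4, the library of that host with the lowest neutrophil markers. They rest on few reads, and a relation to neutrophil markers was not tested. If reads matching several copies were dropped, the sums are too low. Bcl2a1b fell below the 1 TPM mean needed for testing, and Bcl2a1d did not differ detectably at this depth (Rag2-/- against WT -0.10, interval -0.90 to 0.70).

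The effectors were abundant and nearly even across hosts. Bak1, whose protein sits in the outer mitochondrial membrane, measured 238, 256, 256 and 252 TPM in WT, 229, 234, 229 and 250.1 TPM in Rag2-/- and 226, 255, 251 and 244 TPM in NSG. Bax, whose protein moves there from the cytosol, measured 140.2, 146, 122 and 119 TPM in WT, 154, 154, 131 and 137 TPM in Rag2-/- and 141, 138, 159 and 148 TPM in NSG. For both genes the hosts overlapped. Bak1 exceeded Bax in all 12 libraries, by 1.49-fold to 2.11-fold. Between Rag2-/- and WT, Bak1 differed by -0.09 (interval -0.20 to 0.02) and Bax by 0.13 (interval -0.05 to 0.30). Some of their exon sequence occurs in other genes, 9.44% of 100-base windows for Bak1 (in Ggnbp1, at 0.352 to 1.32 TPM) and 5.33% for Bax (in Gm45808, listed at 0 in all libraries).

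Among the BH3-only members, Bid was the most abundant. BID links death receptors to mitochondria after caspase-8 cleaves it. Its level was 92.7, 92.2, 98.2 and 94.7 TPM in WT, 83.3, 92.9, 97.0 and 99.4 TPM in Rag2-/- and 92.2, 94.1, 86.8 and 90.6 TPM in NSG, with every host overlapping the others. Its differences on the log2 scale were -0.02 for Rag2-/- against WT, 0.03 for Rag2-/- against NSG and -0.05 for NSG against WT. Of the 100-base windows of Bid, 15.1% also occur in Bcl2l13, which was itself expressed, at 29.4 to 35.5 TPM. How reads matching both genes were counted is not given in the sources used here, so the Bid level is uncertain to that extent. Bbc3, which encodes the p53 target PUMA, spread more widely between replicates. It measured 16.0, 13.9, 11.4 and 15.5 TPM in WT, 21.4, 14.8, 18.9 and 15.9 TPM in Rag2-/- and 13.5, 9.70, 19.9 and 20.3 TPM in NSG. The NSG libraries alone spanned nearly the whole range, and the Rag2-/- difference from WT, 0.30 ± 0.21, did not pass the test (adjusted p = 0.444, limma).

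Bcl2l11 came closest to a host difference. It encodes BIM, which binds all anti-apoptotic members and drives death after loss of cytokine signals. Its level was 27.3, 28.5, 29.1 and 31.0 TPM in WT, 34.4, 31.6, 35.6 and 36.1 TPM in Rag2-/- and 29.5, 29.3, 34.8 and 29.0 TPM in NSG. All Rag2-/- libraries lay above all WT libraries, and 1 NSG library, replicate 3, lay within the Rag2-/- range. The log2 difference of Rag2-/- from WT was 0.24 ± 0.07 (SE) with a 95% interval from 0.08 to 0.40, a fold of 1.06 to 1.32 on the TPM + 1 scale, and it did not pass the test (limma adjusted p = 0.0943, unadjusted p = 0.0068). Leaving out single libraries gave adjusted p-values (limma) from 0.0444 to 0.242 and differences from 0.21 to 0.28, all under the fold limit. The 0.0444 came without NSG replicate 3, a library outside this comparison, which left the difference at 0.24. With a WT or Rag2-/- library left out, the adjusted p was at least 0.105. Against NSG the Rag2-/- difference was 0.16 (adjusted p = 0.382, limma). Without Rag2-/- replicate 4, the library with the fewest neutrophil transcripts of its host, the difference from WT was 0.22.

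Bcl2l11 and Bcl2l1 were at nearly the same level, and which of them was higher differed by host. Bcl2l1 was the higher in 4 of 4 WT libraries, in 0 of 4 Rag2-/- libraries and in 2 of 4 NSG libraries. The ratio of Bcl2l11 to Bcl2l1 was 0.749, 0.710, 0.877 and 0.829 in WT, 1.06, 1.01, 1.13 and 1.18 in Rag2-/- and 1.03, 0.995, 1.04 and 0.820 in NSG. The Rag2-/- and WT ratios did not overlap, and NSG reached into the ranges of both. This is a description with no test, since the pair was chosen after the values were seen. Where the ratio passes 1 depends on the gene lengths used, while its order between hosts does not.

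**Figure D4:**
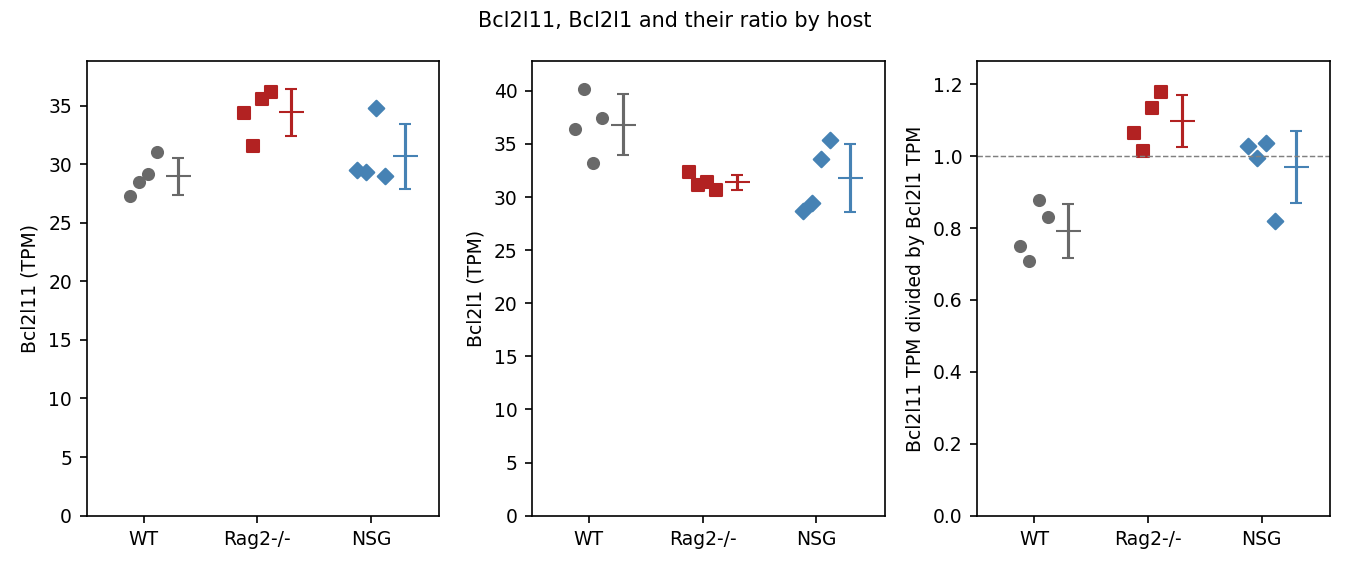
TPM of Bcl2l11 and of Bcl2l1 and their ratio, 1 point per library, with each host's mean and SD beside the points and all axes starting at 0. The ratio lies at 0.710 to 0.877 in WT and at 1.01 to 1.18 in Rag2-/-, with the NSG libraries from 0.820 to 1.04. The dashed line marks a ratio of 1.

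Ordered by mean level, the 10 genes ran Mcl1 (392 TPM), Bak1 (243 TPM), Bax (141 TPM), Bid (92.8 TPM), Bcl2l1 (33.3 TPM), Bcl2l11 (31.4 TPM), Bbc3 (15.9 TPM), Bcl2 (5.26 TPM), Bcl2a1d (1.06 TPM) and Bcl2a1b (0.208 TPM). Neighbours in this order did not overlap over the 12 libraries, except Bcl2l1 with Bcl2l11 and Bcl2a1d with Bcl2a1b. The summed anti-apoptotic level was 440.0 ± 44.4 TPM (SD, n = 4) in WT, 435 ± 29.6 TPM in Rag2-/- and 421 ± 42.4 TPM in NSG. Bax and Bak1 together came to 0.875 ± 0.085 times that sum in WT, 0.877 ± 0.073 in Rag2-/- and 0.930 ± 0.056 in NSG. For the 3 BH3-only members the same ratio was 0.315 ± 0.034, 0.336 ± 0.034 and 0.328 ± 0.028. The host means of each ratio lay within 1 SD of one another.

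The other genes of the pathway were read from 6 lists with 84 genes, of which 77 were tested. In Rag2-/- against WT 1 of the 77 was called, beside 1.47% of all genes tested, in the other comparisons 0 (limma). At an unadjusted p below 0.05 there were 17 of 77 (22.1%, beside 20.9% of all genes) in Rag2-/- against WT, 13 (16.9%, beside 12.6%) in Rag2-/- against NSG and 8 (10.4%, beside 9.16%) in NSG against WT. These pooled shares lay near those of all genes. Those of single lists spread more, from 0% (other anti-apoptotic genes) to 41.7% (p53 and its targets) in Rag2-/- against WT. Named are the genes called, the gene with the highest TPM in each list and those at the ends of each list by Rag2-/- against WT. Values named for genes that were not called are given as they stand.

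Among the other anti-apoptotic genes, 2 of 4 were tested and 0 called. Bcl2l2, which encodes BCL-W, stood at 18.7 to 26.2 TPM over all libraries and differed by -0.14 between Rag2-/- and WT. Its level was below Bcl2l11 and above Bcl2 in every library. Bcl2a1a, a further A1 copy subject to the same shared reads, stood at 0.251 to 3.16 TPM and differed by -0.43 ± 0.38.

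Of 12 further BH3-only and family genes 9 were tested and 0 called, with a median difference of -0.01. Pmaip1 was the most abundant of them and exceeded every BH3-only member of the list of 10. It encodes NOXA, which binds MCL1 and A1 selectively and helps to send MCL1 to degradation. Its level was 185, 206, 181 and 195 TPM in WT, 174, 181, 173 and 190.4 TPM in Rag2-/- and 180.1, 193, 209 and 178 TPM in NSG. The hosts overlapped, and Pmaip1 amounted to 0.400 to 0.536 times Mcl1 in every library. Bmf, a BH3-only gene tied to the cytoskeleton, stood at the upper end (0.28, adjusted p = 0.235, limma). Bcl2l14, which encodes BCL-G, stood at the lower end. It measured 7.37, 9.25, 8.69 and 11.5 TPM in WT and 5.10, 4.79, 5.89 and 7.48 TPM in Rag2-/-, where replicate 4 overlapped WT. Its difference was -0.58 (limma adjusted p = 0.0602), and without Rag2-/- replicate 4 it was -0.69 and passed (adjusted p = 0.0358).

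All 22 genes of the apoptosome, the caspases and their inhibitors were tested, and 0 were called (median -0.01). The most abundant was Vdac1, the outer-membrane channel, at 236 to 301 TPM. At the upper end was Birc3, an inhibitor of apoptosis induced by NF-kappaB, with 34.3, 35.4, 34.0 and 38.9 TPM in WT and 41.9, 44.9, 49.3 and 42.5 TPM in Rag2-/-. At the lower end was Htra2, a mitochondrial protease that counters such inhibitors once released, with 91.7, 101, 94.8 and 99.3 TPM in WT and 77.8, 75.3, 64.6 and 79.5 TPM in Rag2-/-. For both genes Rag2-/- and WT did not overlap, as for 4 of the 22 genes in all, beside 16.9% of all genes tested. The differences, 0.32 for Birc3 (adjusted p = 0.0327, limma) and -0.38 for Htra2 (adjusted p = 0.0338, limma), passed the p-value limit but not the fold limit. Leaving out single libraries raised the adjusted p to at most 0.112 for Birc3 and 0.111 for Htra2.

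In the death receptor route 12 of 12 genes were tested and 0 called (median 0.02). Tnfrsf1a, the main receptor for TNF, was the most abundant at 251 to 315 TPM. Fas, the receptor through which T and NK cells can kill, measured 18.4, 14.3, 15.4 and 15.3 TPM in WT, 17.7, 29.1, 26.8 and 22.5 TPM in Rag2-/- and 15.4, 18.4, 17.3 and 16.0 TPM in NSG. Rag2-/- replicates 2 to 4 were above all libraries of the other hosts, and replicate 1 lay among them. The Fas difference of Rag2-/- from WT was 0.55 ± 0.14 and just missed the test (adjusted p = 0.0506, limma). Without Rag2-/- replicate 1 it was 0.68 and passed (adjusted p = 0.0203, limma). It also passed without NSG replicate 3 (adjusted p = 0.0456, limma), a library outside this comparison, which left the difference at 0.55. Over all fits with a single library left out, the adjusted p-values (limma) ran from 0.0203 to 0.154. Tradd, an adaptor of the TNF receptor, stood at the lower end with -0.30 (adjusted p = 0.111, limma).

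p53 and its targets bear on the family because p53 induces Bbc3, Pmaip1 and Bax. Of 14 genes 12 were tested, and 1 was called in Rag2-/- against WT (median 0.13, against 0.02 for all genes tested). That gene was Zmat3, which encodes an RNA-binding protein that p53 induces. Its level was 4.03, 4.84, 4.30 and 3.86 TPM in WT, 9.49, 8.31, 9.01 and 6.24 TPM in Rag2-/- and 8.73, 5.11, 6.41 and 6.37 TPM in NSG. Every Rag2-/- and every NSG library lay above WT. Zmat3 rose by 0.81 ± 0.16 on the log2 scale (adjusted p = 0.0239, limma), and higher values stood in 4 of 4 libraries. The call was lost when any 1 of 7 of the 8 libraries compared was left out (all but Rag2-/- replicate 4), with adjusted p-values from 0.0567 to 0.0911. NSG differed from WT by 0.53 (adjusted p = 0.422, limma). Ccng1, the most abundant of the list, measured 169.6 to 193 TPM in WT and 218 to 249 TPM in Rag2-/-, without overlap, a difference of 0.37 (adjusted p = 0.0796, limma). Cdkn1a, the classical p53 target p21, and Trp53inp1 were looked at after their values were seen and differed by 0.38 (adjusted p = 0.149, limma) and 0.36 (adjusted p = 0.0689, limma). Tigar was at the lower end with -0.18 (adjusted p = 0.0677, limma). Among p53-induced members of the BCL-2 family, Bbc3 had 0.30, Bax 0.13 and Pmaip1 -0.09, none of them called. At an unadjusted p below 0.05 (limma), the p53 list gave 5 of 12 genes (41.7%, beside 20.9% of all genes) in Rag2-/- against WT. It gave 2 (16.7%, beside 12.6%) in Rag2-/- against NSG and 4 (33.3%, beside 9.16%) in NSG against WT. Libraries did not overlap for 4 of 12 in Rag2-/- against WT, beside 16.9% of all genes, and for 2 in NSG against WT, beside 4.59%. Whether the list departs from all genes was not tested.

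Among 20 genes that control BCL-2 family genes or proteins, such as the MCL1 ubiquitin ligase Huwe1, the deubiquitinase Usp9x and the kinases Pim1 and Pim2, all were tested and 0 called (median 0.06). Akt1, a survival kinase, was the most abundant at 263 to 286 TPM and differed by 0.00. Ddit3, a stress-induced factor that can raise Bcl2l11, was at the upper end with 0.29 (adjusted p = 0.280, limma) and Cebpb at the lower end with -0.15 (adjusted p = 0.698, limma).

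**Figure D5:**
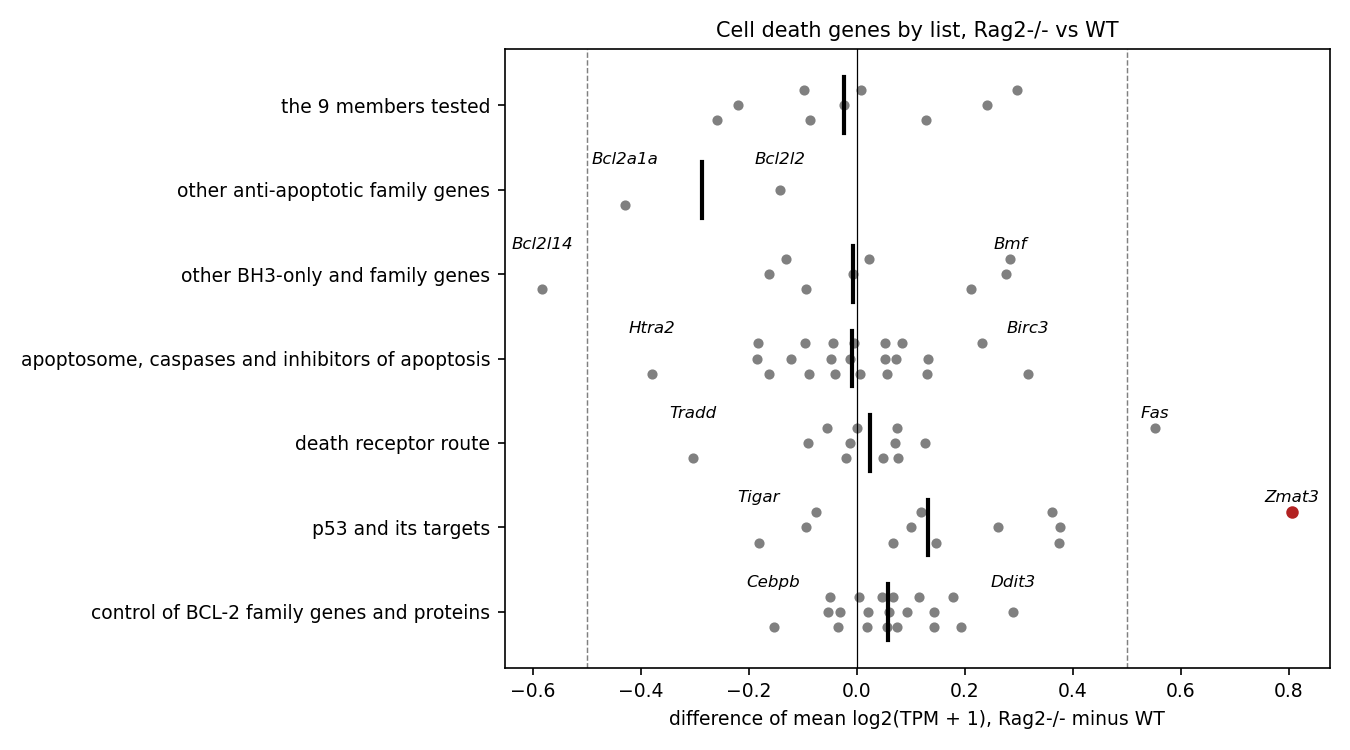
Difference of mean log2(TPM + 1), Rag2-/- minus WT, for each gene tested, by list, with 4 libraries per host. A vertical bar marks each list's median, dashed lines mark 0.5, and the genes at both ends of each pathway list are named. Zmat3, in red, is the only one of these genes called (0.81), and the list medians lie between -0.29 and 0.13.

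The genes whose pattern over the 12 libraries was most like that of Mcl1, by Euclidean distance between Z scores of log2(TPM + 1), were Klf2 (distance 1.45), Pdlim7 (1.51), Nfkbiz (1.65), Jund (1.88) and Spry2 (1.92). The median distance of all genes tested was 4.84. Nearest to Bak1, the most abundant effector, were Il7r (1.31), Abcb8 (1.37), Atp7b (1.46), Xpc (1.50) and Csgalnact1 (1.54). Il7r and Csgalnact1 averaged only 1.37 and 2.10 TPM, near the 1 TPM filter, against 243 TPM for Bak1. The points of each pattern share library and depth, and the nearest of 15026 genes are close by construction, so these distances are a description.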

How the data were processed

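RNA-seq was done on GFP+ leukemia cells of the 3 hosts, with 4 libraries per host and 12 in all. Per the methods, HISAT2 on the Galaxy server mapped the reads to mm10, and gene counts were then turned into TPM. The deposited values are the authors' TPM, and counter, annotation and gene lengths are not given in the sources used here. Of 55401 gene IDs, 55141 were paired with GENCODE M21 symbols and exon lengths, from which reads were recovered (98.8% to 99.1% of values under 20 reads whole within 0.05, 16039876 to 42845569 reads per library, in which both mates of a pair appear to be counted). Precision thus covers counting and replicate spread.

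One limma model (version 3.58.1, R 4.3.3) covered the 3 hosts on log2(TPM + 1), for 15026 genes that averaged 1 TPM or more, with a trend, Benjamini-Hochberg adjustment over all of them and a log2 limit of 0.5. A run of the fit on simulated data used normal noise and shifts larger than any member difference. It does not bear on differences as small as those of the members. Fold changes on this scale understate those of low genes. Genes were named if they were members, called, or the highest, top or bottom of a pathway list, and for Mcl1 and Bak1 the 5 nearest genes. Members and lists were chosen with earlier results of these data known. Replicate numbers did not pair the samples (correlations of -0.09 to 0.03). The alternatives were another pseudocount, filters, scalings, eBayes without trend, 8 libraries alone, a replicate block, no fold limit, each library left out, Bcl2a1a in the anti-apoptotic sum and, chosen after seeing the data, voom on recovered reads. Python 3.11.15 was used besides.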

Additional observations from a re-analysis of the deposited data

Results flagged for a closer look

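In 9 of 129 groups of 4 libraries, 1 library stood apart from the other 3 by Dixon's criterion, where chance gives about 1 in 20 (6.45 of 129). Bcl2a1b was 0.470 TPM in WT replicate 3 and 0.204 TPM in Rag2-/- replicate 4, with the other libraries of those hosts at 0, so its percent of the anti-apoptotic sum stood apart too (0.113% and 0.051%). These values rest on 3 and 2 reads in the deepest library of each host. With the other libraries at 0, any value above 0 meets the criterion, so the Bcl2a1b groups carry no information on spread. Bcl2l11 was 34.8 TPM in NSG replicate 3, beside 29.0 to 29.5 TPM in the other NSG libraries. The summed A1 copies were lowest in NSG replicate 4, 1.70 TPM beside 3.34 to 3.60 TPM. The ratio of Bax and Bak1 to the anti-apoptotic sum was 0.749 in WT replicate 1, the library with the highest Mcl1 (463 TPM), beside 0.907 to 0.931. Tradd was highest in Rag2-/- replicate 1, 36.2 TPM beside 29.8 to 30.0 TPM. Ddit3 was lowest in Rag2-/- replicate 3, 11.7 TPM beside 17.6 to 18.7 TPM.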

How the results depend on the processing

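The count of 0 members called held in all 3 comparisons under each alternative, each library left out included (0 to 0). Pathway genes called in Rag2-/- against WT numbered 1 (Zmat3), but 0 with no filter on low values, 2 with scaling by the median ratio and with voom (Bcl2l14 and Zmat3), 3 with no limit on the fold change (Birc3, Htra2 and Zmat3), and 0 to 2 with single libraries left out. It was 0 without any 1 of the WT libraries or Rag2-/- replicates 2 or 3, and 2 without Rag2-/- replicate 4 or NSG replicate 3. The 1 gene called without Rag2-/- replicate 1 was Fas. Replicate numbers did not pair the samples, and with the replicate block 0 members and 1 pathway gene were called in Rag2-/- against WT.

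Differences near 0 changed sign. In Rag2-/- against WT, Mcl1 was -0.0016 with quantile normalization, -0.016 with the median ratio and -0.016 with voom, and Akt1 was -0.019 with the median ratio and -0.016 with voom. Bid in Rag2-/- against NSG was -0.0044 with voom. In NSG against WT, Bcl2 was -0.031 with quantile normalization and -0.0024 with voom, and Bcl2a1d was -0.12 with quantile normalization.

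Leaving out single libraries in Rag2-/- against WT gave -0.034 to 0.085 for Mcl1, -0.24 to 0.091 for Bcl2a1d, -0.055 to 0.0295 for Bid and -0.0101 to 0.0197 for Akt1. In Rag2-/- against NSG it gave -0.059 to 0.038 for Bcl2l1, -0.059 to 0.018 for Bax, -5.9e-05 to 0.084 for Bid and -0.0022 to 0.33 for Bbc3. In NSG against WT it gave -0.063 to 0.063 for Bcl2, -0.12 to 0.025 for Mcl1, -0.047 to 0.28 for Bcl2a1d and -0.032 to 0.30 for Bbc3. The cause was not tested. With Bcl2a1a in the sum, the Mcl1 share was 89.7%, 91.3% and 90.4% in WT, Rag2-/- and NSG. Bcl2a1a is a low gene, so it could move the share little. The more abundant Bcl2l2 was in neither sum, and the share with it, which would be lower, was not computed. In all, 263 of 270 member differences kept their direction and their side of the threshold under the other settings, and 291 of 315 with a library left out. The filters, eBayes without trend, the 8 libraries alone, the replicate block and no fold limit cannot change a difference of host means. Nor can leaving out a library of the host outside the comparison. In those fits the direction was fixed in advance, so these counts say little about direction. Bcl2a1d passed the filter on low values in 9 of the 12 fits with a library left out. Bcl2a1b could be fitted without that filter alone (Rag2-/- against WT -0.07, adjusted p = 0.909 by limma).

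Depth limits the A1 genes: 2 to 20 reads per library lay behind Bcl2a1d and 0 to 4 behind Bcl2a1b, against 5887 to 14796 behind Mcl1, and since both mates of a pair appear to be counted, the fragments are fewer.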
